A study of Arabidopsis thaliana with 24 samples.

Results

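Root tips of Arabidopsis thaliana seedlings mutant for RH27 (AT5G65900), which encodes an RNA helicase of the DEAD-box class, and carrying its rh27-2 allele, were compared with root tips of the Col-0 wild type (WT) by mRNA sequencing. The comparison took the 3 rh27-2 and the 3 WT libraries that the labels describe as mRNA profiles of root tips, which are 6 of the 24 samples of the series. The other samples are shoot apices and small RNA libraries of both genotypes. Both groups were seedlings at 5 days after germination, grown on Murashige and Skoog plates with sucrose in a long-day light cycle, with no treatment beyond the genotype. The labels do not state what lesion the rh27-2 allele carries, how many plants were pooled, or whether the replicates were grown separately, so the spread that the p-values rest on may be technical. Bulk tissue was sequenced, so fewer cells of a type and less RNA per cell cannot be told apart.

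DEAD-box helicases use ATP to unwind or remodel RNA and its protein partners, and act in ribosome assembly, splicing, RNA decay and small RNA processing. The root tip holds the root cap, the stem cell niche around the quiescent centre, the dividing meristem and the first files of elongating and differentiating cells. Its mRNA therefore mixes genes of growth and division with genes of water and ion uptake, cell walls and the first specialised tissues.

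The libraries held 17646475, 17773761 and 18715079 counts in rh27-2 and 20032006, 15603992 and 16249977 in WT, over 33341 loci. Counts were found at 22733 to 22788 loci in rh27-2 and at 21650 to 21901 in WT. The 100 most abundant genes took 12.1% to 12.3% of all counts in rh27-2 and 13.9% to 14.2% in WT. The first principal component carried 89.5% of the variance and separated the genotypes. Of the shoot markers, CLV3, WUS, STM, FIL and AP1 stood at or near 0 in all 6 libraries. The photosynthesis genes LHCB1.3 and RBCS1A, also on that marker list, did not. The rh27-2 libraries differed among themselves in leaf and seed transcripts. The 43 nuclear photosynthesis genes summed to 546, 345 and 238 CPM (counts scaled to the size of the library) in rh27-2, against 391, 464 and 422 CPM in WT. Among them, LHCB1.3 had 91.3, 58.9 and 32.6 CPM in rh27-2, against 30.3, 32.4 and 32.3 CPM in WT. RBCS1A had 44.5, 36.0 and 12.8 CPM in rh27-2, against 9.01, 12.9 and 13.7 CPM in WT. Neither passed the threshold for a called gene given below. The seed storage gene CRA1 had 125, 27.8 and 0.464 CPM in rh27-2 and none in WT, and CRU3 had 98.5, 18.1 and 0.515 CPM in rh27-2 and none in WT. Replicate 1 of rh27-2 was thus the highest for these seed storage genes and for the photosynthesis sum. Not every gene without a WT count followed this order, since EM1 had 3.27, 9.68 and 9.64 CPM in rh27-2. The part of this gradient in the rises described below was not tested.

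RH27 itself had 13.3, 15.7 and 14.4 CPM in rh27-2, against 26.9, 25.8 and 23.0 CPM in WT. All rh27-2 libraries lay below all WT libraries. Its log2 fold change of rh27-2 over WT was -0.80 (SE 0.094, adjusted p = 8.47e-06, edgeR quasi-likelihood test), so transcript of the gene was reduced but still present. Levels here are CPM scaled by the trimmed mean of M-values (TMM), and a gene is called when its adjusted p is below 0.05.

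Most of the root tip transcriptome differed between the genotypes. Of the 19443 genes with enough counts to test, 6076 (31.3%) were called higher and 5999 (30.9%) lower in rh27-2, and the median log2 fold change was 0.01. All rh27-2 libraries lay above all WT libraries for 34.3% of tested genes, and below them for 33.8%. These shares are the background against which the families below are read. Scaling by total counts in place of TMM moved the median by 0.09 and the calls to 7291 higher and 4834 lower, which put 60.1% of the called genes on the higher side in place of 50.3%.

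The evenness of the calls hid an imbalance of size. At least 2-fold changes counted 1953 genes higher (10%) and 1243 lower (6.39%) in rh27-2, and at least 4-fold changes counted 914 higher (4.7%) and 230 lower (1.18%). Rises of at least 8-fold numbered 539 against 73 falls, and those of at least 32-fold 213 against 13. Level went with direction. When tested genes were cut into 5 equal bins of mean level, the lowest bin had 36.2% called higher and 15.7% lower, whereas the highest bin had 29.7% called higher and 45.4% lower. Low genes were measured less precisely, with a median SE of 0.28 on the log2 scale in the lowest bin and 0.06 in the highest.

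**Figure D1:**
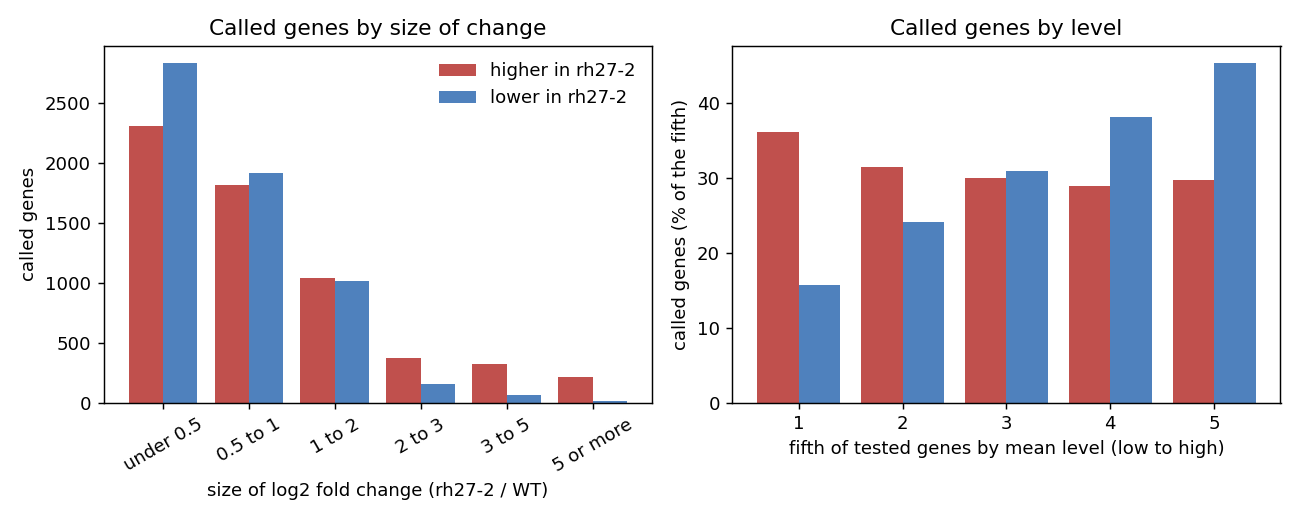
Called genes in rh27-2 root tips by size of the log2 fold change (left, number of genes) and by bin of mean level (right, percent of the bin, in 5 bins from low to high). Bars left in each pair are genes higher in rh27-2 and bars right are genes lower; small changes are slightly more often falls, while changes of 5 or more on the log2 scale are nearly all rises.

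Most large rises were also called without rh27-2 replicate 1, the replicate highest in CRA1, CRU3 and the photosynthesis sum. Replicate 2, which stayed in, also held transcripts of these seed storage genes, with CRA1 at 27.8 CPM and CRU3 at 18.1 CPM. Leaving out replicate 1 therefore does not remove the gradient, and the part of the gradient in the rises was not tested. Of the 914 genes at least 4-fold higher, 58 had more than 2 times as much in rh27-2 replicate 1 as in replicate 3 and 11 the reverse, with a median ratio of 1.07. Without rh27-2 replicate 1, 912 of them were still called higher and 877 still at least 4-fold, and all 230 of the genes at least 4-fold lower were still called lower.

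Some of the 914 rises of at least 4-fold were of genes nearly silent in WT root tips. A total of 64 loci had under 1 CPM in WT and at least 10 CPM in rh27-2, of which 61 were called, and 3 loci, ATGSTF13, SWEET3 and AGL42, had under 1 CPM in rh27-2 and at least 10 CPM in WT. AT3G01345 had 106, 93.2 and 97.5 CPM in rh27-2 and no count in any WT library, which is at least 1657-fold higher against a floor of 3 counts over the WT group. AT2G18190 had 26.6, 27.6 and 29.7 CPM in rh27-2 and no WT count, which is at least 469-fold higher. The 2 loci were steady across the rh27-2 libraries. In all, 66 loci had no count in WT and at least 1 CPM in rh27-2, 56 of them called, and none had the reverse. The loci in both sets were picked by the values that the calls rest on, so the calls add no support. In 12 of the 66, replicate 1 of rh27-2 was over 2 times replicate 3.

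Others among the large rises have known roles. WRKY48, a stress-inducible transcription factor, had 80.6, 84.3 and 70.8 CPM in rh27-2, against 2.47, 2.37 and 2.56 CPM in WT (log2 fold change 4.99, SE 0.10). NDB4, which oxidises NADH in mitochondria without pumping protons, had 94.5, 97.6 and 100 CPM in rh27-2, against 1.39, 1.78 and 1.09 CPM in WT. ATPMEPCRB, a pectin methylesterase, had 110, 102 and 89.2 CPM in rh27-2, against 1.13, 1.32 and 1.28 CPM in WT. For all 3 genes the lowest rh27-2 library was many times above the highest WT library. UMAMIT36, of an amino acid exporter family, had 32.6, 21.4 and 31.9 CPM in rh27-2, against 0.103, 0 and 0.0639 CPM in WT. With only 3 counts in WT, its ratio of 480 carries a 95% counting interval of 164 to 2328. Seed genes were also among them. PER1, a seed peroxiredoxin, had 8.97, 9.02 and 5.62 CPM in rh27-2 and no WT count, which is at least 131-fold higher. ABI3, the master regulator of seed maturation, had 4.65, 6.03 and 5.21 CPM in rh27-2 and 0, 0.132 and 0 CPM in WT, a ratio of 133 with a counting interval of 36.5 to 1104. Unlike CRA1 and CRU3, both were of similar level in the 3 rh27-2 libraries.

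The largest falls were fewer and smaller. AGL42, a MADS-box factor whose enhancer-trap line marks the quiescent centre, had 0.0554, 0 and 0.0515 CPM in rh27-2, against 13.1, 11.9 and 11.9 CPM in WT. With 2 counts over the rh27-2 libraries, WT was 345 times higher, with a counting interval of 95.2 to 2857. NSP3, a nitrile specifier protein of glucosinolate breakdown, had 5.04, 9.08 and 8.56 CPM in rh27-2, against 187, 148 and 179 CPM in WT (log2 fold change -4.50, SE 0.21). UMAMIT17 had 2.66, 2.61 and 3.04 CPM in rh27-2, against 66.6, 62.1 and 66.7 CPM in WT. ATGSTF13, a glutathione transferase, had 0, 0.163 and 0.361 CPM in rh27-2, against 13.2, 13.9 and 13.2 CPM in WT, and its log2 fold change of -6.18 became -7.23 without rh27-2 replicate 3. The sugar exporters SWEET11 and SWEET3 fell too, with log2 fold changes of -3.65 and -3.97.

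**Figure D2:**
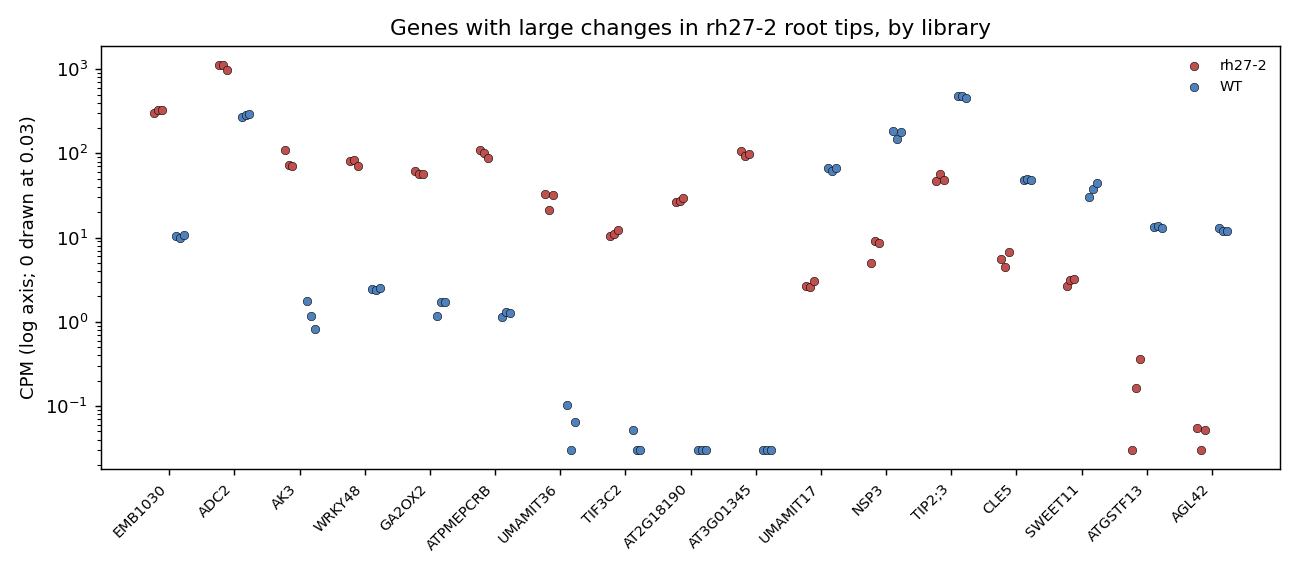
TMM-scaled CPM of genes with large changes in each library, on a log axis with counts of 0 drawn at 0.03; in each pair the left points are the 3 rh27-2 libraries and the right points the 3 WT libraries. The groups do not overlap for any gene shown, and AT3G01345 and AT2G18190 have no WT count. The genes were picked by these values, so the lack of overlap adds no support.

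In several pairs of related genes, the members changed by very different amounts or in opposite directions. These pairs were chosen after their values were seen. EMB1030, an alanyl-tRNA synthetase, had 306, 325 and 329 CPM in rh27-2, against 10.5, 9.82 and 10.9 CPM in WT (log2 fold change 4.94, SE 0.064, adjusted p = 2.36e-14, edgeR), while ALATS, the other alanyl-tRNA synthetase, changed by 0.13. TIF3C2 and EIF3C encode subunit c of initiation factor 3. TIF3C2 had 10.4, 11.1 and 12.4 CPM in rh27-2, against 0.0515, 0 and 0 CPM in WT, a ratio of 568 with a counting interval of 102 to 22484.5 because WT held 1 count. EIF3C rose by 0.53. AK3, an aspartate kinase, had 109, 72.4 and 71.6 CPM in rh27-2, against 1.75, 1.19 and 0.831 CPM in WT, whereas AK1, with a log2 fold change of 0.02, was not called. For the arginine decarboxylases of polyamine synthesis, ADC2 had 1118, 1114 and 985 CPM in rh27-2, against 274, 283 and 292 CPM in WT, and ADC1 rose by 0.17. PCK1 and PCK2, phosphoenolpyruvate carboxykinases of gluconeogenesis, moved apart, with log2 fold changes of 1.26 and -3.04.

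Transcripts of the RNA and translation machinery were mostly higher. Of 29 tested initiation factor genes, 22 rose and 2 fell, with a median log2 fold change of 0.33. Their summed share of all counts was 0.486% ± 0.013 in rh27-2 and 0.361% ± 0.010 in WT (SD, n = 3 each). An exact permutation test over 3 against 3 libraries gave p = 0.1 for this share, the smallest value it can give. The other shares below gave the same p unless another is stated. eIF6A, which acts in maturation of the large ribosomal subunit, had 161, 168 and 173 CPM in rh27-2, against 84.3, 78.8 and 77.4 CPM in WT. All 6 listed subunits of RNA polymerase I and III rose, with a median of 0.70. The list was drawn up with earlier results known, and other subunits were not looked at. NRPA1, the largest subunit of polymerase I, had 117, 120 and 127 CPM in rh27-2, against 59.4, 64.1 and 59.0 CPM in WT. Of 12 genes of nuclear RNA decay and surveillance, 9 rose and none fell, led by the exosome subunit RRP41 (log2 fold change 1.24), with 34.9, 35.6 and 39.9 CPM in rh27-2 and 16.0, 15.5 and 15.2 CPM in WT. Of 15 importin and nucleoporin genes, which carry proteins and RNA through nuclear pores, 10 rose and 1 fell, IMPA-4 (log2 fold change -0.60).

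Small nucleolar RNAs guide modification of ribosomal RNA. Of the 287 such loci in the files, 194 had no count in any library and 26 were tested. Enough counts in a single genotype sufficed for a test, so loci high only in rh27-2 could enter. Among those 26, 18 rose and none fell, with a median log2 fold change of 1.36, and 17 of the rises were at least 2-fold. Of all tested genes in the lowest bin of level, 36.2% were called higher and 15.7% lower. AT3G47348 had 13.2, 13.8 and 14.1 CPM in rh27-2, against 5.36, 5.47 and 4.6 CPM in WT. AT2G04965 had 7.03, 8.15 and 8.09 CPM in rh27-2, against 0.721, 1.45 and 1.15 CPM in WT. The groups did not overlap for either. Short RNAs are captured poorly by mRNA libraries, and reads from host or overlapping genes cannot be told apart because the strand of counting is not given.

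Protein turnover did not follow as a block. Of 24 proteasome genes, 2 rose and 4 fell, with a median of -0.03 that turned to 0.06, with 5 higher and 1 lower, under scaling by total counts. Autophagy genes were mostly lower, with 2 of 27 higher, 17 lower and a median of -0.30. ATG8 proteins coat the autophagosome membrane, and they divided. ATG8H had 38.7, 38.4 and 34.1 CPM in rh27-2, against 114, 111 and 127 CPM in WT, and ATG8E fell by 1.3. ATG8B rose, with 30.3, 29.4 and 36.1 CPM in rh27-2 and 11.1, 14 and 12.1 CPM in WT. Of 19 chaperone genes of the HSP70 and HSP90 families, 12 rose and 4 fell. The share of counts of these families was 0.708% ± 0.031 in rh27-2 and 0.733% ± 0.025 in WT (SD, n = 3 each, exact permutation p = 0.5). Chaperone genes of mitochondria and plastids were among the risers, such as mtHsc70-1 (log2 fold change 0.54), while BIP2, an HSP70 of the endoplasmic reticulum, fell by 0.62.

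The genes that lost most counts belonged to aquaporins and ER bodies. Aquaporins are channels that pass water and small solutes through the plasma membrane and the tonoplast. Of 35 aquaporin genes in the files, 28 were tested, and 20 of these fell and 7 rose, with a median of -0.82. Together they took 1.03%, 0.973% and 0.920% of all counts in rh27-2, against 2.2%, 2.11% and 2.19% in WT. TIP2, a tonoplast channel, had 1369, 1228 and 1157 CPM in rh27-2, against 3675, 3383 and 3722 CPM in WT. PIP1C, of the plasma membrane, had 394, 405 and 389 CPM in rh27-2, against 1823, 1642 and 1866 CPM in WT. For both, the rh27-2 libraries lay well below the WT libraries. TIP2;3 showed the largest fall of the family, with 47.3, 56.6 and 48.9 CPM in rh27-2, against 480, 478 and 453 CPM in WT (log2 fold change -3.21, SE 0.068, adjusted p = 2.19e-12, edgeR). The risers included NIP5;1, a boric acid channel, with 160, 172 and 161 CPM in rh27-2, against 71.3, 75.7 and 79.3 CPM in WT. TIP3;1, a channel of seed vacuoles, had 1.77, 1.09 and 0.773 CPM in rh27-2 and none in WT, at least 20.1-fold higher.

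**Figure D3:**
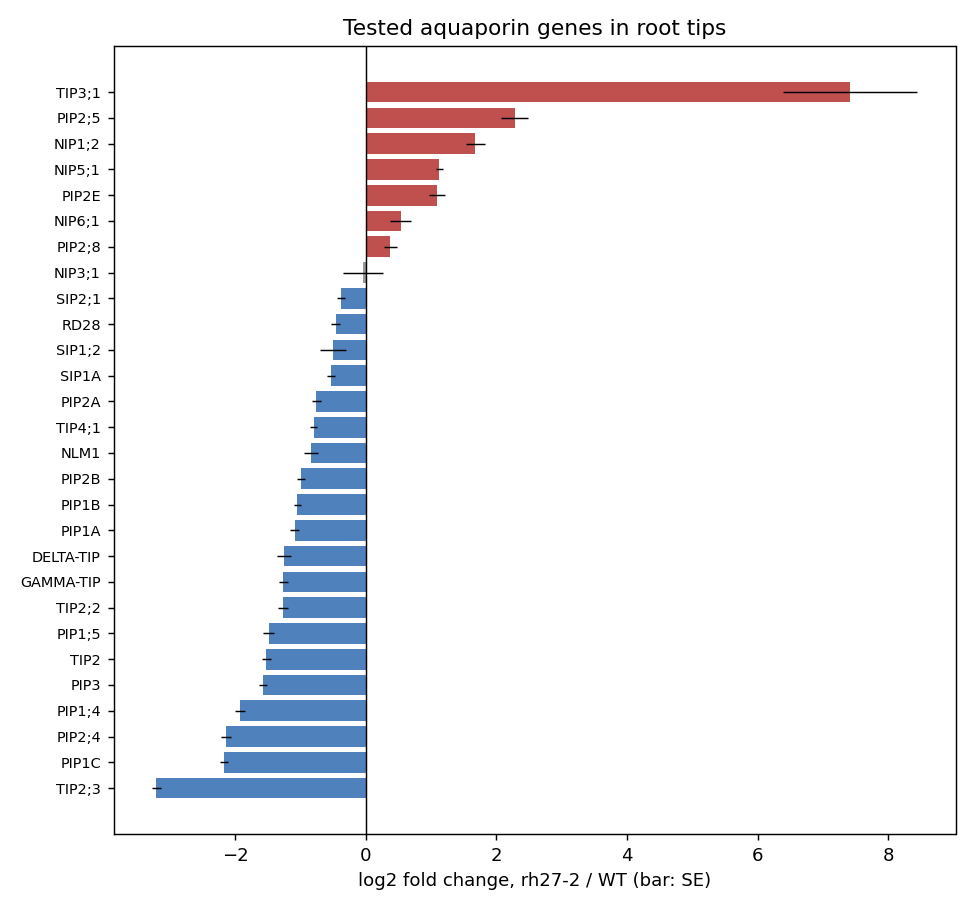
Log2 fold change of rh27-2 over WT for the 28 tested aquaporin genes, with the SE as a line on each bar; bars right of 0 are higher in rh27-2, bars left are lower, and NIP3;1, near 0, was not called. Falls run down to -3.21 for TIP2;3, and TIP3;1, which had no WT count, has the widest error, so that the length of its bar is not a bound.

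ER bodies are compartments of Brassicaceae roots that store beta-glucosidases used in defence. This list was put together after values were seen, so it is given as values only. The beta-glucosidase BGLU21 had 440, 456 and 458 CPM in rh27-2, against 2092, 2054 and 2333 CPM in WT. NAI2, needed to form the bodies, had 849, 955 and 988 CPM in rh27-2, against 2075, 2011 and 2479 CPM in WT. NAI1, their transcriptional regulator, had 52.7, 55.4 and 57.4 CPM in rh27-2, against 110, 114 and 125 CPM in WT. All 3 were well separated between the genotypes. PYK10, the main beta-glucosidase and the most abundant transcript of every library, changed little, with 6397, 6533 and 6303 CPM in rh27-2, against 7121, 7241 and 8025 CPM in WT (log2 fold change -0.22, adjusted p = 0.00557 by edgeR, and 0.0715 under total count scaling). JAL22, a jacalin-related lectin of the list, rose by 1.95.

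Cytoskeleton genes were lower. Of 16 tubulin genes 15 fell and TUA1 was not called, with a median of -0.39, and 12 fell and 1 rose under total count scaling. TUB1 had 78.3, 85.2 and 84.7 CPM in rh27-2, against 236, 242 and 253 CPM in WT. Among 18 tested actin, profilin and actin-depolymerising factor genes, 11 fell and 4 rose. ACT2 had 860, 819 and 802 CPM in rh27-2, against 1802, 1676 and 1815 CPM in WT, and ACT8 had 685, 651 and 628 CPM in rh27-2, against 1492, 1414 and 1535 CPM in WT. Both are actins of vegetative tissue and share much of their sequence. ACT7, the actin of young growing tissue, had a log2 fold change of 0.12 (adjusted p = 0.0504, edgeR) and was not called. PRF3, a profilin, rose by 2.29.

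Wall genes divided by class. Of 31 tested genes of the cellulose synthase superfamily, 19 fell and 6 rose, and of 38 arabinogalactan and fasciclin-like protein genes, which encode glycoproteins of the cell surface, 24 fell and 8 rose. ATCSLB05 fell by 3.25, AGP22 by 2.2 and AGP7 by 1.3. AGP22 had 47.5, 43.9 and 41.5 CPM in rh27-2, against 217, 182 and 211 CPM in WT. Among the classes that loosen or remodel walls, expansins were more often higher, with 12 of 21 that rose and 5 that fell. Of 27 xyloglucan endotransglucosylases, 15 rose and 10 fell, so both directions were above the shares of all tested genes. Pectin enzymes counted 12 higher and 11 lower of 33, near those shares. XTH20 had 78.1, 94.5 and 86.5 CPM in rh27-2, against 3.86, 4.61 and 5.88 CPM in WT, and EXPA4 had 91.6, 85.7 and 101 CPM in rh27-2, against 28.3, 30.5 and 31.9 CPM in WT. EXPA7, an expansin of root hairs, fell by 1.29. EXT4, an extensin, was among the 10 genes with a symbol that gained most CPM. It had 1309, 970 and 937 CPM in rh27-2, against 189, 216 and 187 CPM in WT.

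Iron uptake genes were higher while iron storage genes were lower. In Arabidopsis roots the FIT factor and its partners of the BHLH38 group switch on the reductase FRO2 and the transporter IRT1, and ferritins store iron. Of 19 tested acquisition genes 14 rose and 2 fell, with a median log2 fold change of 2.12, and of 7 storage genes 1 rose and 4 fell. IRT1 had 92.7, 75.9 and 79.9 CPM in rh27-2, against 15.6, 10.9 and 6.90 CPM in WT (log2 fold change 2.87, SE 0.28, adjusted p = 0.00048, edgeR). FRO2 had 36.9, 37.5 and 43.9 CPM in rh27-2, against 9.84, 7.84 and 7.03 CPM in WT. Neither overlapped between the genotypes. NAS1, which makes the metal chelator nicotianamine, had 118, 99.3 and 99.4 CPM in rh27-2, against 10.4, 11.7 and 8.89 CPM in WT. BHLH38, BHLH39 and BHLH100 rose, with log2 fold changes of 3.68, 2.12 and 4.59 (the last 5.65 without WT replicate 1). FIT itself fell, with 9.86, 12.7 and 12.6 CPM in rh27-2, against 25.1, 25.1 and 25.8 CPM in WT, and so did IRT2 (log2 fold change -1.88). BTS, which limits the response, and BHLH101 were not called, at 0.06 and 0.23. The ferritin FER1 had 34.0, 34.4 and 30.5 CPM in rh27-2, against 72.9, 69.2 and 66.9 CPM in WT.

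Genes of nitrate reduction were higher, while nitrate transporters as a family went both ways. Of 22 tested nitrate and ammonium genes, 13 rose and 6 fell, and the share of counts of the list was 0.743% ± 0.006 in rh27-2 and 0.487% ± 0.011 in WT (SD, n = 3 each). The NPF and NRT transporter family, which overlaps this list, counted 11 higher and 12 lower of 26 (12 higher and 9 lower under total count scaling). Nitrate response regulators counted 4 higher and 5 lower of 11, with a median of -0.02 that became 0.07 under total count scaling. The nitrate transporter and sensor NRT1.1 had 967, 992 and 893 CPM in rh27-2, against 386, 379 and 354 CPM in WT. NIR1, nitrite reductase, had 567, 539 and 532 CPM in rh27-2, against 138, 135 and 134 CPM in WT (log2 fold change 2.01, SE 0.049). The nitrate reductases NIA1 and NIA2 rose by 1.79 and 1.74. All 3 rh27-2 libraries of each were above all WT libraries. Cytosolic glutamine synthetases, which fix ammonium, split, with GLN1;2 up by 1.52 and GLN1;1 and GLN1;3 down, at -0.40 and -0.79. ASN1, the asparagine synthetase induced by low sugar, showed the largest fall of the list, with 3.1, 2.72 and 4.74 CPM in rh27-2, against 228, 148 and 261 CPM in WT.

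**Figure D4:**
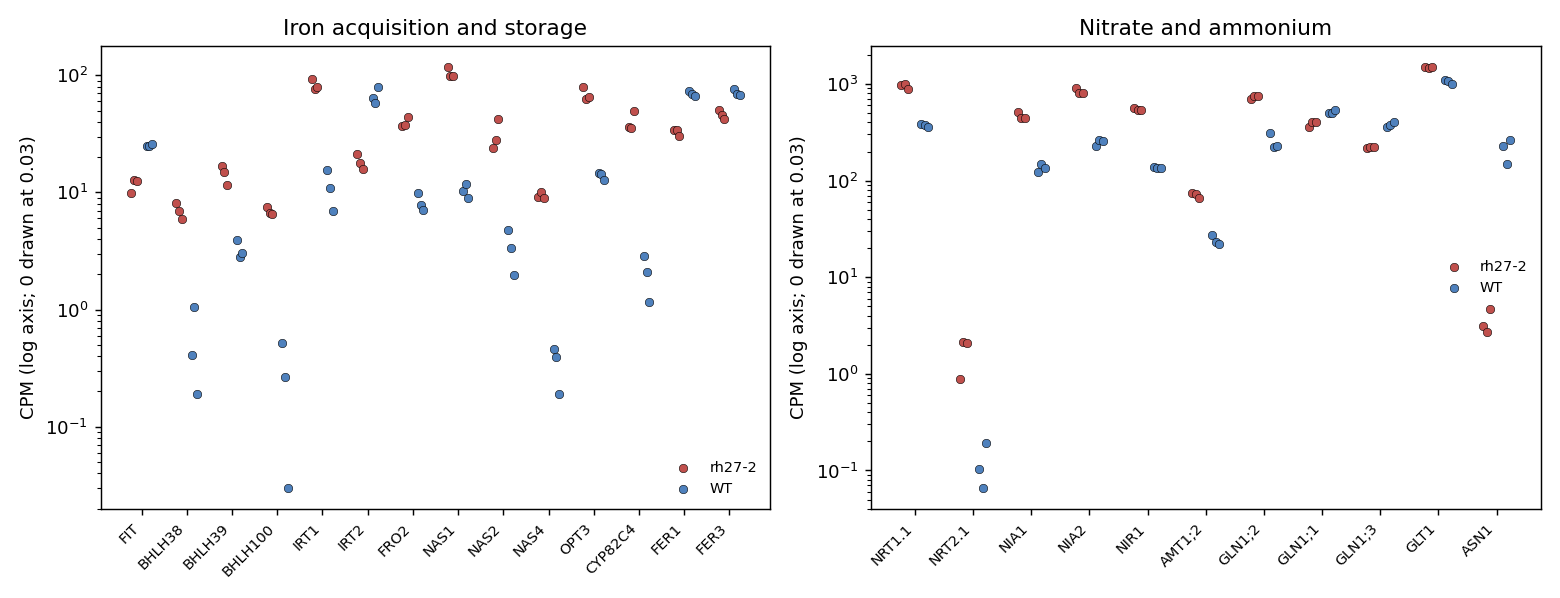
TMM-scaled CPM per library, on a log axis, of iron genes (left panel) and nitrate and ammonium genes (right panel); in each pair the left points are rh27-2 and the right points WT, and counts of 0 are drawn at 0.03. FIT, IRT2 and the ferritins are lower in rh27-2 while IRT1, FRO2 and the NAS genes are higher; in the right panel ASN1, GLN1;1 and GLN1;3 are lower.

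Sugar genes moved in both directions, as did all tested genes. Of 18 glycolysis genes, 9 rose and 5 fell. Of 9 sucrose breakdown genes, 3 rose and 2 fell. The sucrose synthases SUS3 and SUS1 rose, by 1.65 and 1.17, and the neutral invertase CINV1 fell by 0.61. Both classes of enzyme cleave sucrose. SUS3 had 94.2, 115 and 106 CPM in rh27-2, against 28.9, 37.0 and 35.0 CPM in WT. The proton pump HA2 was among the 10 genes with a symbol that gained most CPM. It had 2888, 2765 and 2627 CPM in rh27-2, against 1947, 1837 and 1923 CPM in WT (log2 fold change 0.54).

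Hormone genes changed in both directions within most lists, as did all tested genes (31.3% higher and 30.9% lower). Of 13 tested gibberellin synthesis and breakdown genes, 7 rose and 4 fell. GA2OX2, which inactivates gibberellin, had 61.1, 57.7 and 57.3 CPM in rh27-2, against 1.18, 1.71 and 1.73 CPM in WT. The synthesis genes GA20OX1 and GA20OX3 also rose, by 2.59 and 2.45. Of 9 gibberellin signalling genes, 2 rose and 4 fell, and the receptor GID1B rose by 1.1. Of 12 brassinosteroid synthesis genes, 3 rose and 6 fell, with CYP90D1 at 1.78 and BR6OX1, a late oxidase, at -2.59. Of 13 brassinosteroid signalling genes, 9 rose and 2 fell, and the receptor BRI1 rose by 0.50. The list of cytokinin receptors, histidine phosphotransfer proteins and B-type response regulators had 8 of 12 genes lower and none higher (1 higher and 8 lower under total count scaling), among them ARR2 and the receptor AHK2, which fell by 0.83 and 0.58. Of 18 cytokinin synthesis and breakdown genes, 7 rose and 5 fell. IPT3, which starts cytokinin synthesis, rose, with 29.9, 24.2 and 30.4 CPM in rh27-2, against 4.07, 3.49 and 3 CPM in WT. Abscisic acid synthesis and breakdown genes counted 4 higher and 6 lower of 12, with 3 at least 2-fold changes each way, and response genes 6 higher and 7 lower of 18. The synthesis genes NCED3 and NCED9 fell by 2.04 and 2.99. CYP707A4, a breakdown gene, had 3.60, 2.94 and 2.68 CPM in rh27-2 and 0.0515, 0 and 0 CPM in WT, a ratio of 154 with a counting interval of 27.2 to 6109.

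Transcription factor families leaned towards higher levels in several cases. Of 68 tested NAC genes, 44 rose and 8 fell, and 26 rises but no fall were at least 2-fold. NAC103, of the stress response of the endoplasmic reticulum, had 15.7, 12.9 and 13.3 CPM in rh27-2, against 0.721, 0.725 and 0.448 CPM in WT. Of 23 LBD genes, 15 rose and 1 fell, with LBD38, a repressor of nitrate genes, at 115, 112 and 115 CPM in rh27-2, against 64.1, 60.5 and 61.5 CPM in WT. WRKY genes counted 27 higher and 12 lower of 53, ERF and DREB genes 23 higher and 9 lower of 54, homeobox genes 37 higher and 17 lower of 74, and DOF genes 11 higher and 3 lower of 17. WRKY23, an auxin-regulated factor of root development, had 25.1, 26.8 and 26.5 CPM in rh27-2, against 3.50, 3.03 and 2.17 CPM in WT. By contrast bZIP genes counted 10 higher and 20 lower of 48. MYB genes counted 26 higher and 32 lower of 83, with a median of -0.09 that became 0.01 under total count scaling, with 30 higher and 28 lower.

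**Figure D5:**
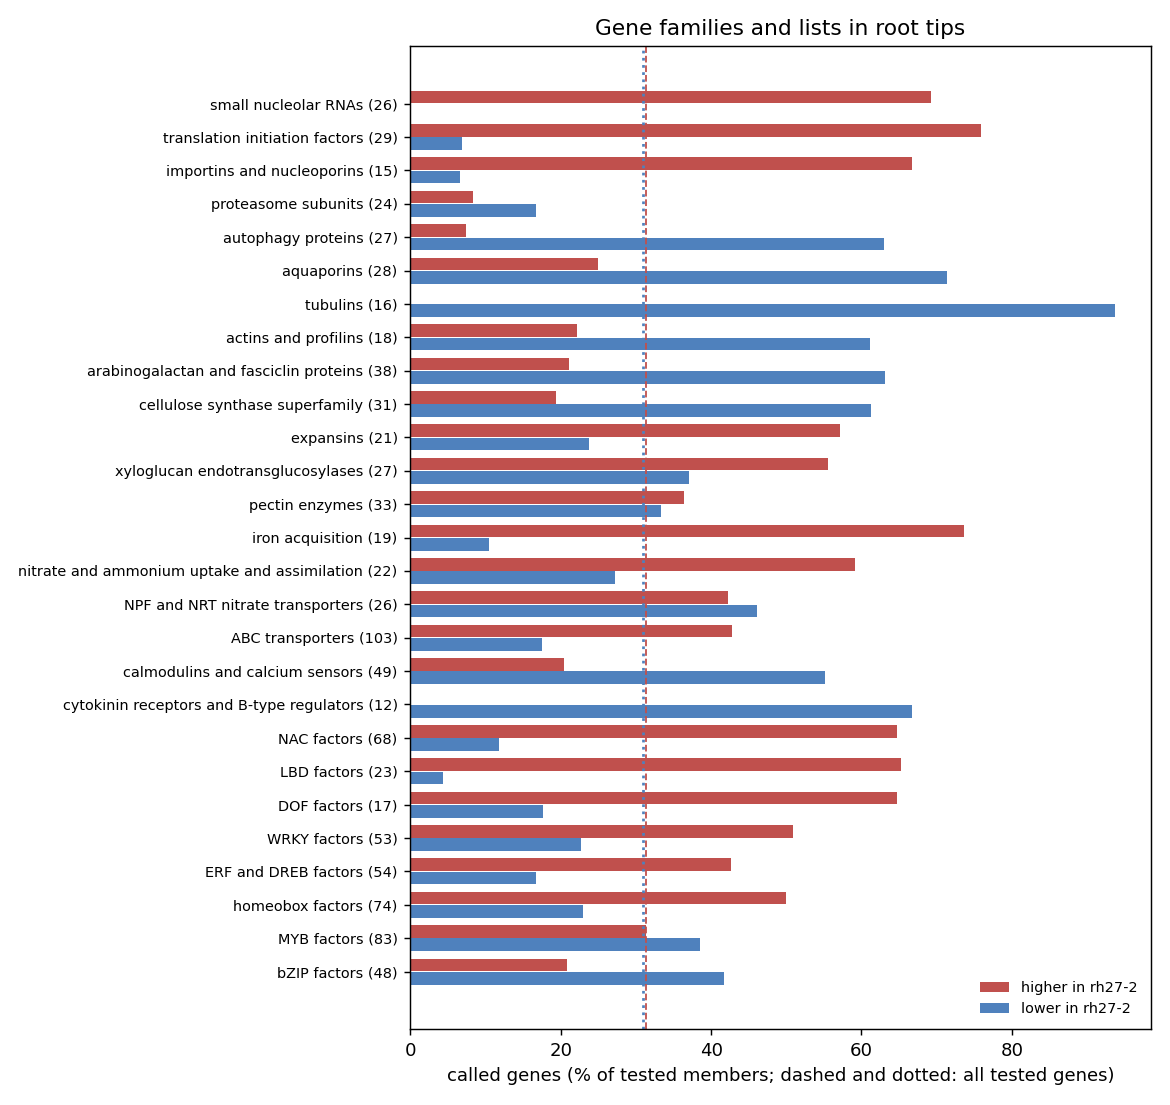
Percent of tested members called higher (upper bar of each pair) or lower (lower bar) in rh27-2 for gene families and lists, with the number tested in parentheses. The dashed line marks 31.3%, the share of all tested genes called higher, and the dotted line 30.9%, the share called lower; the bars of tubulins (15 of 16 genes) and aquaporins (20 of 28 genes) reach furthest on the lower side.

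Genes of the vascular stem cells and procambium, the cells that give rise to xylem and phloem, were higher or not called. Of 13 tested, 8 rose and none fell, with a median of 0.72. Markers of differentiated cells were lower or not called beside them, and their part in these counts was not tested. The phloem marker SUC2, a sucrose carrier, fell by 1.80 on the log2 scale, SEOR1 of sieve elements by 0.84, and the xylem protease XCP1 by 0.42. The endodermal CASP1 and CASP2, which build the Casparian strip, fell by 1.08 and 1.16, and the root hair genes COBL9 and RHD6 by 1.21 and 1.04. APL of phloem, VND7 of xylem and SCR of endodermis were not called, and LAC17 had no count. MP, the auxin response factor ARF5, had 115, 123 and 127 CPM in rh27-2, against 26.5, 28.7 and 33.2 CPM in WT. PXY, the receptor that maintains procambium, had 40.6, 36.5 and 39.5 CPM in rh27-2, against 11.5, 13.6 and 12.5 CPM in WT. CLE41 and CLE44 encode the peptide that PXY binds. CLE41 had 18.9, 20.4 and 19.2 CPM in rh27-2, against 3.76, 2.90 and 4.6 CPM in WT, and CLE44 rose by 5.15 (5.80 without WT replicate 3). CLE5, another peptide gene, fell, with 5.54, 4.51 and 6.80 CPM in rh27-2, against 47.9, 50.4 and 48.1 CPM in WT. Of 12 lateral root and pericycle genes, 4 rose and 2 fell, and LRP1, expressed in lateral root primordia, had 52.2, 50.8 and 50.2 CPM in rh27-2, against 3.24, 3.49 and 4.35 CPM in WT. The 3 quiescent centre genes did not move together, since WOX5 and BRAVO rose by 2.93 and 1.20 while AGL42 fell. Of 6 root cap genes, 3 rose and 1 fell, with log2 fold changes between -0.56 and 0.70, and the calls of BFN1 and FEZ among the risers were lost when single libraries were left out.

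Transport families differed in direction, with aquaporins mostly lower, as described above, and ABC transporters more often higher. Of 103 tested ABC transporter genes, 44 rose and 18 fell, with 21 rises and 3 falls of at least 2-fold. ABCG1, which exports suberin precursors, had 53.7, 65.3 and 55.7 CPM in rh27-2, against 7.93, 8.83 and 8.89 CPM in WT, and the vacuolar exporter ABCC3 had 314, 349 and 360 CPM in rh27-2, against 125, 117 and 112 CPM in WT. The UMAMIT amino acid exporters counted 18 higher and 11 lower of 36, the SWEET and monosaccharide transporters 5 higher and 7 lower of 17, and the potassium transporters and channels 16 higher and 15 lower of 44. Metal transporters counted 14 higher and 13 lower of 42, and proton and calcium pumps 8 higher and 8 lower of 23. The potassium, metal and pump families were thus near the shares of all tested genes, 31.3% higher and 30.9% lower. Of 11 lipid transfer protein genes, 8 rose and 1 fell. The share of counts of that family was 0.0402% ± 0.0035 in rh27-2 and 0.0386% ± 0.0012 in WT (SD, n = 3 each, exact permutation p = 0.7). LTP2, which lies in the cuticle, had 36.2, 38.2 and 29.1 CPM in rh27-2, against 0.721, 0.989 and 0.448 CPM in WT. KCS6, an elongase of wax synthesis, followed the gradient of the rh27-2 libraries, with 16.4, 10.2 and 7.47 CPM in rh27-2 and 1 count in WT, a ratio of 565 with a counting interval of 101 to 22342. Glutathione transferases counted 18 higher and 11 lower of 40. GSTU20 had 83.1, 64.6 and 60.8 CPM in rh27-2, against 6.75, 4.81 and 4.79 CPM in WT, while GSTU28 had 5.32, 4.62 and 4.74 CPM in rh27-2, against 46.5, 43.6 and 50.3 CPM in WT. The 141 cytochrome P450 genes tested counted 62 higher and 46 lower, but the share of counts of the family was lower in rh27-2. It was 0.528% ± 0.017 in rh27-2 and 0.648% ± 0.049 in WT (SD, n = 3 each).

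Calcium sensor genes leaned lower. Of 49 calmodulin, calcium-dependent kinase and related genes, 27 fell and 10 rose, with a median of -0.29. CDPK2, a calcium-dependent protein kinase, had 54.9, 53.8 and 49.6 CPM in rh27-2, against 119, 104 and 124 CPM in WT, whereas the kinase CPK4 had 101, 92.6 and 92.1 CPM in rh27-2, against 43.7, 49.5 and 45.6 CPM in WT. Of 42 MAP kinase cascade genes, 7 rose and 17 fell, with a median of -0.07 that became 0.02 under total count scaling, with 10 higher and 15 lower.

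The changes were spread over the genome. The median log2 fold change of the nuclear chromosomes lay between -0.00 and 0.02. There were 9 runs of at least 4 consecutive tested genes that changed at least 2-fold the same way, 7 of them higher in rh27-2 and 2 lower. Untested loci that lie between them were skipped, and the number of runs to be met without any clustering was not worked out. The longest run held 6 genes, from AT2G29310 to AT2G29380, with log2 fold changes of 1.47 to 2.85. In the run from AT3G50120 to AT3G50150 all 4 genes fell. Around RH27, the 19 tested genes within 10 loci on either side counted 6 higher and 7 lower. At least 2-fold changes were 4 higher and 1 lower, against 10% and 6.39% of all tested genes. Within 50 loci on either side, they were 10 higher and 3 lower of 81. The 1 gene at least 2-fold lower within 10 loci was ACS5, an ethylene synthesis gene. It had 1.77, 2.01 and 1.70 CPM in rh27-2, against 37.1, 31.5 and 40.0 CPM in WT. Genes of the mitochondrial genome took 0.031% to 0.034% of counts in rh27-2 and 0.038% to 0.062% in WT.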

How the data were processed

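The deposited files hold raw counts per locus, which the authors made from root tip mRNA reads on TAIR10, and the submitters' processing notes name TopHat2, Bowtie2, HTSeq and edgeR without their roles or versions. The strand setting of the counting is not given in the sources used here. Counts were tested with edgeR 4.0.16 in R 4.3.3 (robust quasi-likelihood test, TMM scaling, filterByExpr with a minimum count of 10, no covariate), with Benjamini-Hochberg adjustment over the 19443 genes tested and a threshold of 0.05. The method was tested on simulated data in which few genes changed, as many up as down. That test does not cover scaling when most genes change, as here. RefSeq held 33056 of the 33341 loci, and 10815 had a symbol. Families were matched by symbol, synonym, gene type or locus prefix, so they may be incomplete. Genes without a symbol did not enter the rankings by fold, p-value or CPM from which genes were named.

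Members and gene lists were chosen with earlier results of these data known. Genes were named by rule: RH27, the 20 genes that rose most and the 20 that fell most (called, named in RefSeq, log2 CPM averaging 1 or more, groups not overlapping), the 10 smallest p-values, the 10 genes gaining and the 10 losing most CPM, up to 4 genes by adjusted p and 2 by fold size per list, up to 5 genes at 0 in a genotype, and genes within 10 loci of RH27. Other genes named in the text, such as the partners in gene pairs, seed genes and genes not called, were chosen after their values were seen. Since most named genes were picked by their values, groups that do not overlap add no support for them. Intervals of low-count ratios (95%) and the floor of 3 counts cover counting error only. Alternatives were total count scaling, DESeq2 1.42.0 and its size factors, no low-count filter, a replicate block and leaving out each library.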

Additional observations from a re-analysis of the deposited data

How the results depend on the processing

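The counts of genes called higher and lower (6076 and 5999) stayed within 1.5 times under every alternative run, at 7291 and 4834 with total count scaling, 6064 and 5991 with DESeq2 size factors in edgeR, 5628 and 5446 with DESeq2, and 6478 and 6177 without the low-count filter. Leaving out each library gave 5653 to 5922 higher and 5494 to 5877 lower. The count of genes at least 4-fold higher, 914, was 1431 without the low-count filter, which tests more low genes, and this 4-fold count was added after seeing the data. Replicate numbers in the labels did not pair the samples, since libraries of the same number had correlations of their deviations of 0.041, 0.023 and -0.018, and WT replicate 2 correlated best with rh27-2 replicate 3. With the replicate number as a block, 5995 genes were higher and 5942 lower, and 11729 of the 12075 called genes were called the same way. Among named genes, 4 that were not called changed sign: CGR3 was 0.029 and AT5G65950 0.054 with total count scaling, AT5G65820 ranged from -0.072 to 0.34 and RLP57 from -0.0061 to 0.048 when single libraries were left out. The causes were not tested. The search of promoters for motifs was not run. Genes with few counts limit the size of the largest folds.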
